A study of Mus musculus with 2 samples.

Results

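The regions described here are CTCF peaks at CpG-rich promoters of protein-coding genes in the hindbrain of newborn mice. A peak belongs to them if it is in the optimal set of reproducible peaks, lies on chromosomes 1 to 19 and meets 2 conditions. Its summit is at most 1 kb from a start site of a protein-coding gene, with such start sites on 1 strand only. The summit with 500 bp on each side has a ratio of observed to expected CpG dinucleotides over 0.6. The rule took 4666 of the 61263 optimal peaks on these chromosomes, out of 62686 in the whole optimal set. It used position and base composition but neither the signal value of a peak nor the CTCF motif. The optimal set was itself filtered for reproducible peaks, and a motif near the summit lies inside the window whose CpG content was used. Neither measure is thus wholly free of the selection.

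CTCF ChIP-seq recovers with an antibody the DNA that CTCF occupies. The single group is hindbrain of B6NCrl mice on postnatal day 0, with no treatment or engineered allele named. Its 2 libraries, biological replicates 1 and 2, carry the label of the same pool of pulverised hindbrains, so differences between them may reflect technical spread alone. The p-values below run over peaks and do not measure spread between libraries or animals. The tissue mixes the cell types of cerebellum, pons and medulla, the sex of the pups was not recorded, and RNA was not measured.

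CTCF is a zinc finger protein that reads a long, asymmetric DNA motif. It halts the loop-extruding cohesin complex, and paired sites that point toward each other anchor loops, so the direction of a motif matters for what it can do. Promoters of many widely used and developmental genes lie in CpG islands, stretches that keep their CpG dinucleotides because they stay largely unmethylated, and methylation of CpG inside the motif is known to weaken CTCF binding.

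A site here means a match to the 14-bp CTCF core consensus with at most 2 mismatches, on either strand, within 50 bp of the summit. The sequences below are shown because matches were most frequent at the strongest peaks. Each is the strand that matches the consensus, 5′ to 3′, from GRCm38, with the 14-bp core in capitals and 8 bases on each side. Rrp1 (chr10:78413117-78413146), Med4 (chr14:73509889-73509918), Gins4 (chr8:23237877-23237906), Acbd4 (chr11:103102807-103102836), Fitm2 (chr2:163472684-163472713) and Vps13d (chr4:145195082-145195111) are among the 12 strongest members. In all 6 the core reads in the direction of transcription.
Rrp1: tcctcctcCCTGCAGGGTGCAGttgcgcct
Med4: tcctttgcCCTGTAGATGGCGCtagaactg
Gins4: ccgattcgCCACAAGACGGCGCtgcctggt
Acbd4: gtgggtttCCACCAGGGGGCGCgaggactc
Fitm2: agacacgcCCTCTAGGGGGCGGagcttgca
Vps13d: ggctgcggACGCTAGGGGGCGCcccatcga
Acbd4 has no mismatch to the consensus, Med4 and Fitm2 have 1, and Rrp1, Gins4 and Vps13d have 2. Position 3 of the core is a mismatch in Rrp1, Med4, Fitm2 and Vps13d.

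The next sequences show cores that point against transcription, at Ndufa6 (chr15:82354422-82354451) and Rgs9 (chr11:109298251-109298280), and cores with 3 CpG dinucleotides, at Apba1 (chr19:23758348-23758377), Dpp8 (chr9:65032318-65032347) and Tradd (chr8:105259848-105259877). The capitals again mark the core.
Ndufa6: ctgaggaaCCACCAGGAGGCGCagcgtcga
Rgs9: cccacctgCCACCAGGGGGCGGcgtccggc
Apba1: tcgagtggCCGCGAGGGGGCGCccgcgtga
Dpp8: tcctcccgCCGCTCGGTGGCGCtgtggggc
Tradd: caagcctaCCGCGAGGGGGCGCtgcgcacc
Apba1 and Tradd share the same 14 letters, on promoters of different chromosomes.

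Strong peaks without a consensus match also exist. The search gives each letter of the consensus equal weight, so the lack of a match does not show that a CTCF site is absent. The summits with 50 bp on each side at Eif3g (chr9:20898629-20898729) and Rfc3 (chr5:151651268-151651368) are shown on the strand of the gene, since both rank among the strongest members with no match even at 3 mismatches. Neither window overlaps an exon of a coding gene.
Eif3g: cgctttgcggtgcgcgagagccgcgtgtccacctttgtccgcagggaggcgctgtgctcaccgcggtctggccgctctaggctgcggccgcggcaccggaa
Rfc3: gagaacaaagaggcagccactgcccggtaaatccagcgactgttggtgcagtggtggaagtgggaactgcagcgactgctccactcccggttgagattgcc
The closest match to the core has 4 mismatches at Eif3g and 5 at Rfc3. The Eif3g window holds 15 CpG dinucleotides and the Rfc3 window 4.

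CpG-rich promoter peaks had a lower median signal than all other optimal peaks as a whole. The signal value is the authors' own score of a peak, on the peak caller's scale with no stated unit, and is used to rank and describe peaks. Its median was 54.1 in the members, with quartiles of 31.5 and 119.9, against 76.5 in all 56597 other optimal peaks and 68.6 in the 5353 CpG-poor coding promoter peaks. It was 101.2 in the 683 CpG-rich peaks over 1 kb from every annotated start (distal peaks) and 78.0 in the 47664 CpG-poor distal peaks. Peaks at divergent coding promoters, with starts on both strands, had 50.6 (n = 837), below the members. Members made up 276 of the peaks in the strongest decile (10% of the peaks by signal) of the optimal set, which is 5.92% of the members, against 9.23% of the CpG-poor promoter peaks. In the weakest decile were 14.8% of the members and 11.2% of the CpG-poor promoter peaks. The levels of the classes overlap widely: the lowest member value was 7.25 and the highest 646, close to the range of 7.24 to 646.5 in CpG-poor promoter peaks.

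The strongest member lay 61 bp upstream of Rrp1, a gene for a nucleolar ribosome-processing protein. Its signal was 374 in library 1 and 275 in library 2, and 646 in the pooled data, where it ranked 5 among the 61263 peaks. The peak 88 bp upstream of Med4, a subunit of the Mediator complex that links regulators to RNA polymerase II, had 328 and 291 in libraries 1 and 2. Gins4, part of the helicase that unwinds DNA in replication, had 341 and 268. Rrp1, Med4 and Gins4 ranked 1, 30 and 13 of 300000 in library 1, and 28, 9 and 40 in library 2. Acbd4 had 329 and 247, Pik3r2, a regulatory subunit of phosphoinositide 3-kinase, 320 and 238, and Fitm2, which acts in lipid droplet formation, 297 and 255.8. Ephb1, a receptor in axon guidance, had 286 and 238, and Vps13d, a lipid transfer protein, 295 and 224. Adprhl2, which removes ADP-ribose from proteins, had 275 and 241, Atp5g2, a subunit of the mitochondrial ATP synthase, 303 and 219, Wdr37 297 and 214, and Slc39a13, a zinc transporter, 280 and 232. Library 1 gave the higher value at all 12, as it did at 89.1% of the members listed in both libraries. The scale of each list is its own, so this gap is not read as a difference. Of the 12 summits, 11 lay upstream of the start and 8 outside any coding gene. The same number, 11, carried a consensus match, and 10 of those matches read in the direction of transcription. Slc39a13 was the exception, and Atp5g2 had its closest match at 3 mismatches.

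Both libraries contained nearly all members. A peak overlapped 99.7% of the members in the list of library 1 and 99.3% in that of library 2. Among the 62686 strongest peaks of both libraries were 77.7% of the members, against 82.7% of the CpG-poor promoter peaks, a difference of -5.05 percentage points (95% interval -6.62 to -3.49, Newcombe). The conservative set, the authors' stricter one, held 81.6% of the members and 86.0% of the CpG-poor promoter peaks. All 276 members of the strongest decile were among the 62686 strongest in both libraries, and 88 of the 691 members of the weakest decile. Across members, the ranks in the libraries had a Spearman correlation of 0.887 (n = 4621 peaks), against 0.932 in CpG-poor promoter peaks (n = 5321). Members with a consensus match had 0.962 and those without 0.817. The 2 groups differ in signal, with quartiles of 50.1 and 248 with a match and 28.0 and 80.6 without. Their correlations were not compared at like signal. These are descriptions over peaks, which share the same libraries.

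**Figure D1:**
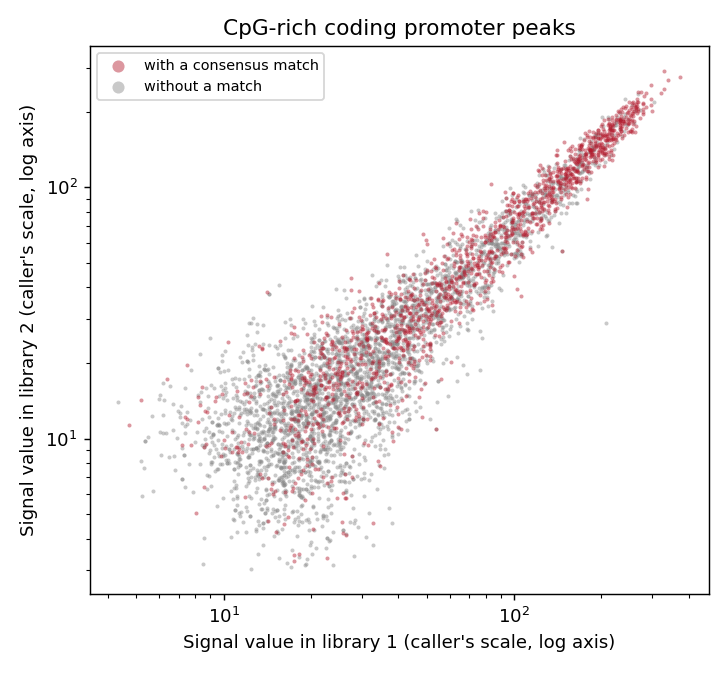
Signal of each CpG-rich coding promoter peak in library 1 (x axis) and library 2 (y axis), on the caller's scale with log axes; red points have a consensus match and grey points do not. The points narrow to a line at high signal, where red points dominate, and spread at low signal, where grey points dominate.

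Matches to the CTCF consensus were less frequent at these promoters than at CpG-poor promoters or away from starts. A match lay near 1483 of the 4666 summits, 31.8% (95% Wilson interval 30.5 to 33.1). In the same members, equal windows 1 kb to each side held a match in 2.85% and 3.24%, so the summit windows were well above their own surroundings (exact McNemar test over peaks, p = 5.37e-315 and 2.68e-304). Peaks are not replicates, so p-values and intervals over peaks cover counting error only. The share was 55.0% (53.6 to 56.3) in CpG-poor promoter peaks, a difference of -23.2 points (-25.1 to -21.3). It was 49.3% in CpG-rich distal peaks, a difference of -17.6 points (-21.5 to -13.6), and 70.7% in CpG-poor distal peaks. Divergent promoter peaks had 27.6% (24.7 to 30.7), and the members exceeded them by 4.18 points (0.792 to 7.40). These shares depend on the consensus, which scores G at position 3 as a mismatch. That G was in 26.2% of the members' matched cores and in 8.26% of those at CpG-poor promoters.

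Against CpG-poor promoter peaks and, in the fit over all strengths, CpG-rich distal peaks, the share stayed lower when peaks of like strength were compared. In a logistic regression over all 61263 peaks with the log2 signal as a term and standard errors clustered by chromosome, the log odds of a match were -0.917 (SE 0.0408) for members minus CpG-poor promoter peaks (Wald test, n = 61263 peaks, p = 3.99e-112). The same fit gave -0.457 (SE 0.0940, n = 61263 peaks, p = 1.2e-06) for members minus CpG-rich distal peaks, against -0.737 without the signal term. Against divergent promoter peaks it gave 0.129 (SE 0.109, n = 61263 peaks, p = 0.235), which leaves an odds ratio between 0.920 and 1.41. With up to 3 mismatches allowed, the log odds were nearer to even, -0.615 against CpG-poor promoter peaks and -0.263 against CpG-rich distal peaks. In the strongest decile of all peaks 80.8% of the members had a match, against 89.9% of CpG-poor promoter peaks, 81.5% of CpG-rich distal peaks and 92.6% of CpG-poor distal peaks. In the next decile the share was 62.9% in members, 81.4% in CpG-poor promoter peaks and 77.9% in CpG-rich distal peaks. In the weakest decile it was 11.9% (9.66 to 14.5) in members and 23.9% in CpG-poor promoter peaks. CpG-rich distal peaks had 3.64% there (1.00 to 12.3, n = 55), below the members. The flanks of these weakest members held a match in 3.4%.

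**Figure D2:**
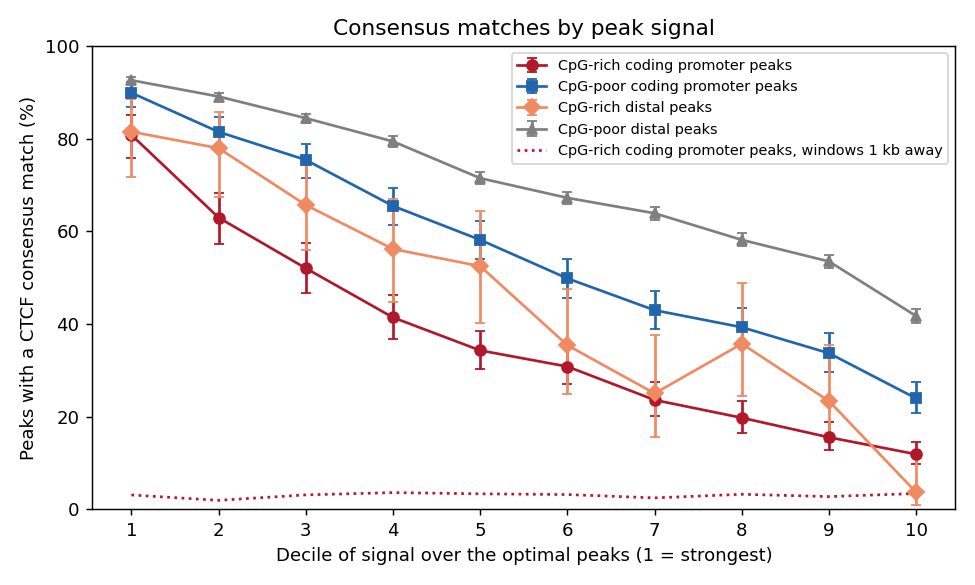
Share of peaks with a consensus match (y axis, %) by decile of signal over the optimal set (x axis, 1 is the strongest) for 4 classes, with 95% Wilson intervals; the dotted line is the mean of the windows 1 kb to each side of the CpG-rich promoter peaks. The CpG-rich promoter peaks start at 80.8% and end at 11.9%, below the CpG-poor promoter peaks in every decile.

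The closeness of the match went with strength. Members with no mismatch numbered 73, with a median signal of 279, and those with 1 mismatch 412, with 178. With 2 mismatches there were 998 members, median 82.3, and with 3 there were 1629, median 51.9, close to the value of all members. No match up to 3 mismatches was found at 1554 members, whose median was 37.0. Among members with a match the median was 108, and among the 3183 without it 43.5. In CpG-poor promoter peaks the medians were 120 with a match and 44.2 without.

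Of the 53 members in the strongest decile without a match, 46 had one at 3 mismatches and 7 had none. The strongest of these was Ndufaf3, an assembly factor of respiratory complex I, with 242 in library 1 and 179 in library 2 at 79 bp upstream. Next came Eif3g, a subunit of the translation initiation factor that loads ribosomes onto mRNA, with 224 and 178. 9530077C05Rik had 217 and 175, Rfc3, part of the clamp loader of DNA replication, 206 and 148, and Smim8 191 and 158. Rps14, a protein of the small ribosomal subunit, had 206 and 134. The sequences of Eif3g and Rfc3 printed above thus belong to peaks that both libraries rank high.

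The matches themselves held more CpG at these promoters. Of the 1483 matched cores, 76.9% (74.7 to 78.9) contained at least 1 CpG dinucleotide, against 41.1% (39.3 to 42.9) of the cores at CpG-poor promoters, 76.3% at CpG-rich distal peaks and 29.2% at CpG-poor distal peaks. The core lies inside the window whose CpG content the rule used, so a difference from the CpG-poor classes is partly set by the rule. A CpG that begins at position 12 of the core was in 63.3% of the members' cores and in 34.6% of those at CpG-poor promoters. One that begins at position 2 was in 24.6% and 7.42%. Position 3, where the consensus has A, held A in 54.3% of the members' cores and G in 26.2%, while A was found in 78.0% of cores at CpG-poor promoters. The sequences of Apba1 and Tradd above show both CpG places filled.

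At 1 and 2 mismatches, cores with these CpG dinucleotides lay under peaks of higher median signal. Among members with 2 mismatches, the median signal was 153 with a CpG at position 2 (251 peaks) and 71.6 without (747 peaks). With 1 mismatch it was 198 with it (114 peaks) and 167 without (298 peaks). For a CpG at position 12 the medians at 2 mismatches were 96.7 with it (583 peaks) and 68.4 without (415 peaks), and at 1 mismatch 193 (294 peaks) and 126 (118 peaks). Perfect cores had the other order at position 12, with 279 with the CpG (61 peaks) and 298 without (12 peaks). That order rests on few peaks and was not seen at CpG-poor promoters. Perfect cores there had 301 with the CpG at position 12 (135 peaks) and 246 without (196 peaks). By their number of CpG dinucleotides, the members' cores had medians of 77.0 at 0, 113 at 1, 139 at 2 and 94.4 at 3 or more (49 peaks). CpG-poor promoter peaks had the same order at position 2, with 148 and 73.3 at 2 mismatches with and without the CpG at position 2. A CpG at position 2 uses up a mismatch at position 3, so the cores compared differ in where their other mismatches lie. Methylation was not measured, and its part in these values was not tested.

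Within the members, the share of matches was lower at ratios over 0.8 than at ratios under 0.7, with no further order among the higher ranges beyond their intervals. At ratios of 0.6 to 0.7 the share was 35.5% (33.1 to 37.9, n = 1502), at 0.7 to 0.8 31.6% (n = 1542), at 0.8 to 0.9 28.8% (26.2 to 31.6, n = 1068) and at 0.9 to 1 29.2% (n = 459). Above 1 it was 22.1% (14.9 to 31.4, n = 95). The median signal was 57.7 in the lowest of these ranges and 49.7 in the highest. The member with the highest ratio, 1.23, lay 761 bp upstream of Yy1, a zinc finger factor that can bridge promoters and enhancers, and was weak, with 16.3 and 6.22 in libraries 1 and 2. Tmpo, a gene for lamina-associated proteins, had a ratio of 1.2 and 120 and 75.9 in the libraries. Chd7, a chromatin remodeller, had 1.15 with 30.0 and 23.7, and Pds5a, a cohesin regulator, 1.11 with 9.97 and 8.51. Of these 4, Tmpo alone carried a match. At the threshold of the rule, Mapkapk3 and Ednrb lay just inside with ratios of 0.600012 and 0.600028 and pooled signals of 47.8 and 56.3. Rhoc and Mecom lay just outside with 0.599924 and 0.599792 and signals of 212 and 50.5.

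Summits gathered just upstream of the start. The median summit lay at -34 bp, where a negative value is upstream in the direction of transcription, with quartiles at -172 and 157 bp. Within 100 bp of the start were 35.2% of the members, against 21.6% of the CpG-poor promoter peaks, and 63.0% against 38.4% within 250 bp. The CpG ratio of a promoter depends on the distance from its start, and the rule used the ratio, so this difference is a description. Upstream lay 58.4% of the members (57.0 to 59.9) and 55.8% of the CpG-poor promoter peaks, a difference of 2.66 points (0.719 to 4.60). The density was 114 members per 10 bp in the 50 bp before the start and 80.2 in the 50 bp after it. Peaks 100 to 51 bp upstream were the strongest, with a median signal of 93.0, and those 50 to 99 bp downstream the weakest, with 40.2.

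The share of matches also changed at the start. A match was found at 46.3% of the members 100 to 51 bp upstream and at 19.2% of those 0 to 49 bp downstream, a difference of 27.1 points (21.0 to 32.8). At 500 to 1000 bp the share was 33.2% upstream and 30.6% downstream. Upstream as a whole the share was 35.6%, and from the start onward 26.4%, a difference of 9.20 points (6.52 to 11.8). By annotation, 41.0% of the members lay outside coding genes, and 36.7% of these had a match. All 1915 members outside coding genes lay upstream, so the values by annotation are not separate from those by side of the start. In introns lay 25.4% of the members, with a match in 30.7%, and in untranslated exons 20.2%, with a match in 24.9%. Coding sequence held 10.3%, with a match in 29.6%, and exons of noncoding transcripts 3.15%. The median signal was 70.8 outside coding genes and 42.0 in coding sequence.

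Cores tended to point in the direction of transcription. Of 1442 matches with a clear strand, 837 read the same way as the gene, 58.0% (55.5 to 60.6; exact binomial test against 50%, two-sided, p = 1.09e-09). In CpG-poor promoter peaks 1448 of 2872 did, 50.4% (48.6 to 52.2), and the difference between the classes was 7.63 points (4.48 to 10.7). Sense matches were over 50% on 17 of the 19 chromosomes, and their share ran from 48.4% on chromosome 17 to 71.4% on chromosome 9. Matches with at most 1 mismatch were sense in 63.5% and those with 2 in 55.3%, a difference of 8.17 points (2.79 to 13.4).

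The tilt was an upstream feature. Upstream of the start 63.9% of the members' matches were sense (n = 944), and from the start onward 47.0% (n = 498), a difference of 16.9 points (11.5 to 22.2). It was 68.4% (61.8 to 74.3) at 100 to 51 bp upstream and 67.9% (61.0 to 74.1) in the last 50 bp before the start. At 500 to 1000 bp downstream it was 39.1% (31.0 to 47.7). CpG-poor promoter peaks had 67.2% at 100 to 51 bp upstream, 1.26 points away from the members (-7.70 to 10.2). In the last 50 bp before the start the CpG-poor promoter peaks had 52.5% (45.2 to 59.6), and the members exceeded them by 15.4 points (5.47 to 24.9). Between 500 and over 100 bp upstream 61.8% of the members' matches were sense, against 46.9% in CpG-poor promoter peaks, a difference of 14.9 points (8.82 to 20.8). Downstream the classes differed by 0.431 points (-4.74 to 5.63).

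**Figure D3:**
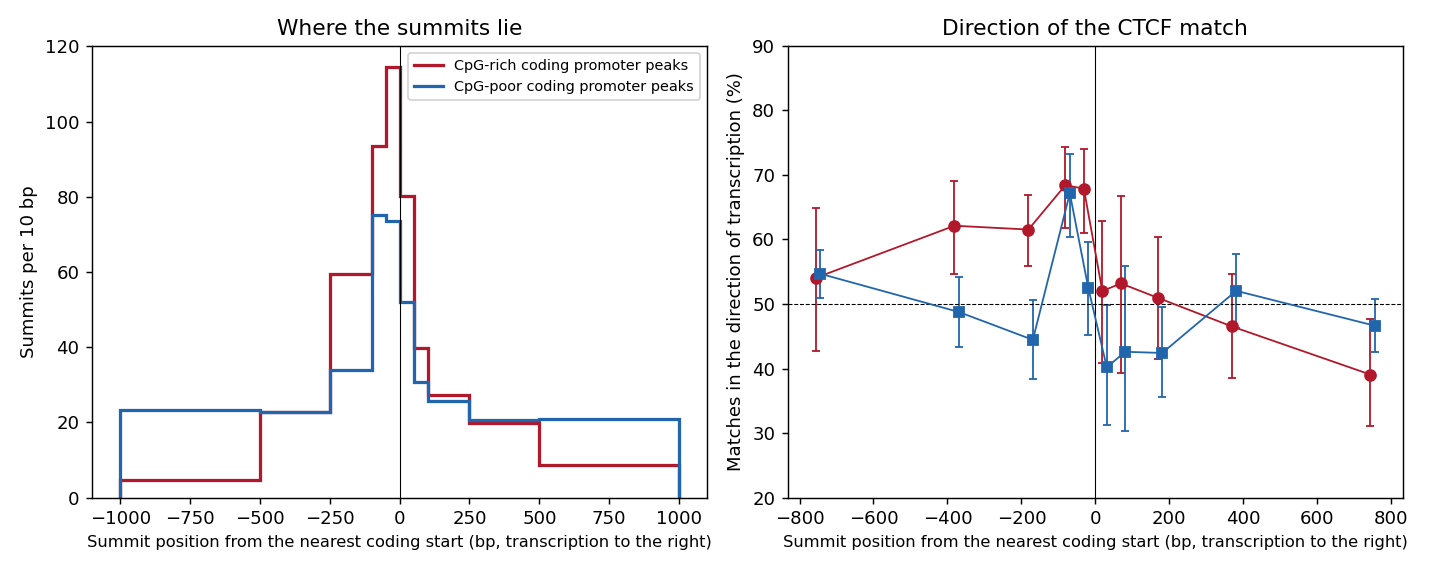
Left, summits per 10 bp (y axis) by distance from the nearest coding start (x axis, bp, upstream negative) in CpG-rich (red) and CpG-poor (blue) coding promoter peaks; right, share of matches that read in the direction of transcription (y axis, %), each point at the middle of its distance range with its 95% Wilson interval. The red curve peaks at 114 summits per 10 bp just before the start, and both classes reach over 67% sense matches at 100 to 51 bp upstream.

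Upstream of CpG-rich coding starts with no optimal peak the matches leaned too, at 100 bp by less than in members. At CpG-rich coding starts with no optimal peak, windows of 50 bp to each side of the point 100 bp upstream held a match in 6.08%, and 55.2% of these (51.8 to 58.5) were sense. Members with summits in the same window had a match in 43.8%, of which 66.4% were sense, a difference of 11.2 points (5.22 to 17.0). Matches of members were searched around each summit and not around the fixed point, so the stretches searched are not the same. For member summits within 50 bp of the start, to both sides, 63.6% were sense. Windows centred on unoccupied starts had 50.1%, a difference of 13.4 points (6.50 to 20.04). The member value pools 67.9% in the last 50 bp before the start and 52.0% at 0 to 49 bp downstream. At 200 bp upstream the difference was 3.78 points (-5.28 to 12.4), and at 200 bp downstream -0.812 (-12.9 to 11.8). Over 5 windows from 200 bp upstream to 200 bp downstream, the unoccupied starts had 50.9% sense matches (49.2 to 52.5). At 200 bp downstream they had 45.4% (41.7 to 49.2). Of these starts, 86.7% had a peak of the unfiltered pooled list. A start of a noncoding transcript on the other strand lay within 1 kb of 745 members. Among these 50.7% of the matches were sense, against 59.3% in the other 3921, a difference of -8.63 points (-15.8 to -1.46).

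Short motifs of other promoter factors, searched on both strands within 50 bp of the summit, were set beside windows of equal length centred on the 28093 annotated CpG-rich coding starts, many of which share a gene. The 2 kinds of window differ in position, since summits lie to both sides of the start. GGGCGG, the SP/KLF box, was in 23.5% of the members, against 41.4% of the start windows. CCGGAAG, read by ETS factors, was in 4.67% against 9.60%, CGCNTGCGC, read by NRF1, in 3.34% against 6.58%, and AAGATGGC, read by YY1, in 1.2% against 3.78%. CCAAT, read by NFY, was in 9.09% (8.30 to 9.95) against 9.68%, the TATA box TATAAA in 1.01% against 1.55%, CACGTG, the E-box, in 2.72% against 3.75%, and TGACGTCA, the cyclic AMP response element, in 0.407% against 1.51%. The interval for CCAAT holds the value of the start windows. ACTACAATT, read by ZNF143, was in 2 members and 8 start windows. Some of these gaps depend on where the start windows lie. In windows centred 50 bp upstream of CpG-rich starts with no optimal peak, AAGATGGC was in 1.06%, near the members' share, and CCAAT in 18.7%, while GGGCGG was in 52.5%, CCGGAAG in 9.74% and CGCNTGCGC in 8.27%. Between members without and with a CTCF match, the widest gap was for GGGCGG. It was in 22.5% of those without (21.0 to 23.9) and in 25.8% of those with a match (23.7 to 28.1), where 8.9% of the cores themselves spell it. CCGGAAG was in 5.06% of those without and 3.84% of those with a match. At least 1 of these motifs other than TATAAA was in 37.1% of the members without a CTCF match and in 39.4% of those with it. In members without a CTCF match, windows 300 bp upstream and downstream of the summit held CCGGAAG in 2.32% and 3.02%, below the summit windows. They held CGCNTGCGC in 1.38% and 2.29%, against 3.30% at the summit. For GGGCGG they had 18.2% and 25.5%, to either side of the summit share. TATAAA went the other way, with 2.98% and 2.04% against 1.04% at the summit. A match is a description of letters and shows no binding by these factors.

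From the side of the genes, 9183 protein-coding genes had a start with a CpG ratio over 0.6 and no coding start on the other strand within 1 kb. A member summit lay within 1 kb of a start in 3935 of them, 42.9%. Counting every gene whose start was nearest to a member, 3425 genes had 1 member, 543 had 2, 49 had 3 and 2 had 4. Occupied genes were more frequent where the promoter spelled the motif more closely. A member was found at 52 of the 62 genes with a perfect match within 250 bp of a start, 83.9% (72.8 to 91.0), and at 70.1% of the 522 with 1 mismatch. The share was 49.1% of the 3080 genes with 2 mismatches, 37.3% of the 4991 with 3 and 27.3% (23.6 to 31.2) of the 528 with 4 or more. The count also went with the number of annotated CpG-rich starts, with 36.4% of genes occupied at 1 start and 50.2% at 7 or more. Genes with more starts also have more sequence searched for a close match, and the trends with mismatches and with starts were not separated. Of the 13937 CpG-rich starts with no optimal peak within reach, 86.7% had a peak of the unfiltered pooled list, and of all 28093 CpG-rich starts 6.59% had neither.

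**Figure D4:**
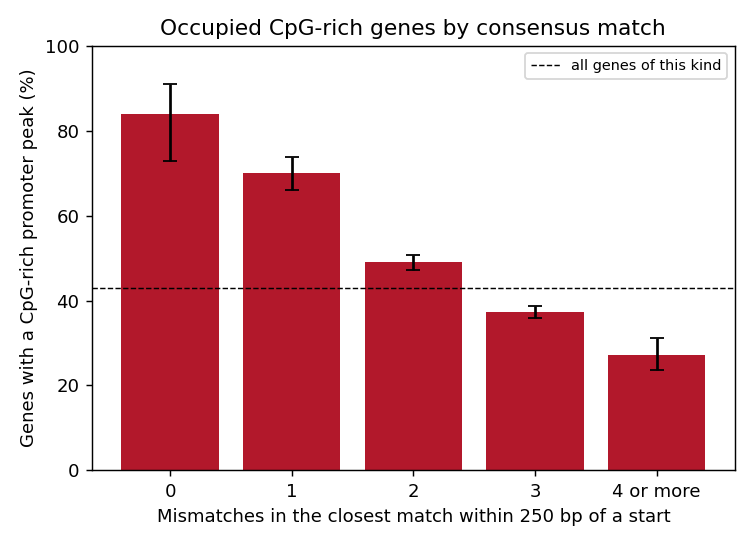
Share of CpG-rich coding genes with a promoter peak (y axis, %) by mismatches in the closest consensus match within 250 bp of a CpG-rich start (x axis), with 95% Wilson intervals and a dashed line at 42.9%, the share over all 9183 genes. The share falls step by step, 83.9% at no mismatch and 27.3% at 4 or more.

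Lists of basic cell functions ran between 35.0% and 66.7% of genes with a member. Of 63 genes for cytosolic ribosomal proteins with this promoter type 35 had a member, 55.6% (43.3 to 67.2), beside the 42.9% of all genes. Rpl26 had 262 in library 1 and 207 in library 2, Rps3a1 253 and 192, and Rpl5 233 and 192, and all 3 carried a match. Rpl10l and Rpl13 had no member. Mitochondrial ribosomal proteins had members at 18 of 45 genes, with Mrps33 at 238 and 187. Complex I of the respiratory chain, subunits and assembly factors, had 11 of 21, and its strongest peaks were high: Ndufb7 had 268 and 236, and Ndufa6, whose antisense core is printed above, 299 and 202. The median of the strongest member per gene was 346 in this list, against 62.0 over all occupied genes. RNA polymerase subunits had 8 of 12 genes, led by Polr2j of polymerase II with 286 and 208. Spliceosome proteins had 20 of 36, led by Snrpe with 249 and 188, translation initiation factors 19 of 38, and tRNA synthetases, which charge tRNAs with amino acids, 7 of 20, led by Rars with 221 and 150.

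Lists of protein turnover, traffic, division and chromatin ran between 40.6% and 65.4%. The proteasome had 15 of 33 genes, led by Psmd6 with 257 and 198. Psmc4 had a perfect core, in antisense, with 161 and 127. Ubiquitin-conjugating enzymes had 15 of 30, led by Ube2q1 with 260 and 209 at 883 bp upstream. Rab GTPases, which direct vesicle traffic, had 15 of 35, and Rab32, with a perfect core, had 247 and 180. Kinesins, the microtubule motors, were counted by symbols of Kif and a number and had 11 of 27, led by Kif1b, again with a perfect core, at 203 and 170. Kifc1 and Kifc5b, kinesins outside that list and chosen after their values were seen, had higher values, 264 and 203, and 264 and 215. Both lie on chromosome 17, with CpG ratios of 0.937 and 0.938 and summits 292 and 288 bp upstream. Whether reads of such similar promoters can be told apart was not tested. Cyclins and cyclin-dependent kinases, counted by numbered symbols, had 17 of 26 genes, 65.4% (46.2 to 80.6). Their strongest peaks were at Cdk20, with 132 and 84.3, and Cdk6, with 134 and 87.2. Ccny, a cyclin without a number and so outside the list, again chosen after its values were seen, had 260 and 166. Among chromatin remodellers and histone modifiers 25 of 57 genes had a member, led by the demethylase Kdm1a with 226 and 190. Chd1 and Chd2 had none. C2H2 zinc finger genes named Zfp had 80 of 197, led by Zfp638 with 266 and 219.

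Of the 20 lists, the lowest shares were those of homeodomain factors, Sox and forkhead factors, and synaptic release proteins. Homeodomain transcription factors had a member at 18 of 92 genes, 19.6% (12.7 to 28.8), beside the 42.9% of all genes. The strongest was Hoxa7, 43 bp downstream of a start in an untranslated exon, with 250 and 203, and Hoxb5 had 172 and 129 and Hoxa10 100.3 and 87.4. All 3 are Hox genes and had sense cores. Dlx1 and Dlx2, factors of forebrain interneurons, had no member. Sox and forkhead factors had 10 of 47, 21.3% (11.99 to 34.9), led by Foxd2 with 124 and 74.4 and Sox11 with 100.6 and 68.2, and Foxa1 and Foxa2 had none. Synaptic vesicle and release proteins had 7 of 40, 17.5% (8.75 to 31.9). Their strongest was Syt17 with 97.8 and 71.8, and Cplx1 and Rims1, which act in vesicle release, had none.

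The other neuronal lists ran between 33.3% and 52.8%. Axon guidance ligands and receptors had 28 of 53 genes, 52.8% (39.7 to 65.6), led by Ephb1, Efnb2 with 216 and 134, and Sema4c with 184 and 152. Potassium channel subunits had 23 of 49, led by Kcnh1 with 170 and 106, and Kcnj6 had 163 and 86.5. Neurotransmitter receptor subunits had 8 of 24 genes, led by the kainate receptor gene Grik4 with 218 and 170, and the NMDA receptor gene Grin3a had 161 and 117. Over all lists, the interval lay above 42.9% for 2, cytosolic ribosomal proteins and cyclins with their kinases, and below it for 3, the homeodomain, Sox and forkhead, and synaptic vesicle lists. These intervals are not adjusted for the 20 lists, and that of the cytosolic ribosomal proteins begins at 43.3%, close to 42.9%. The lists were not matched for the number of annotated starts, with which the share also went. They are described by their counts and were not tested against the other genes.

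**Figure D5:**
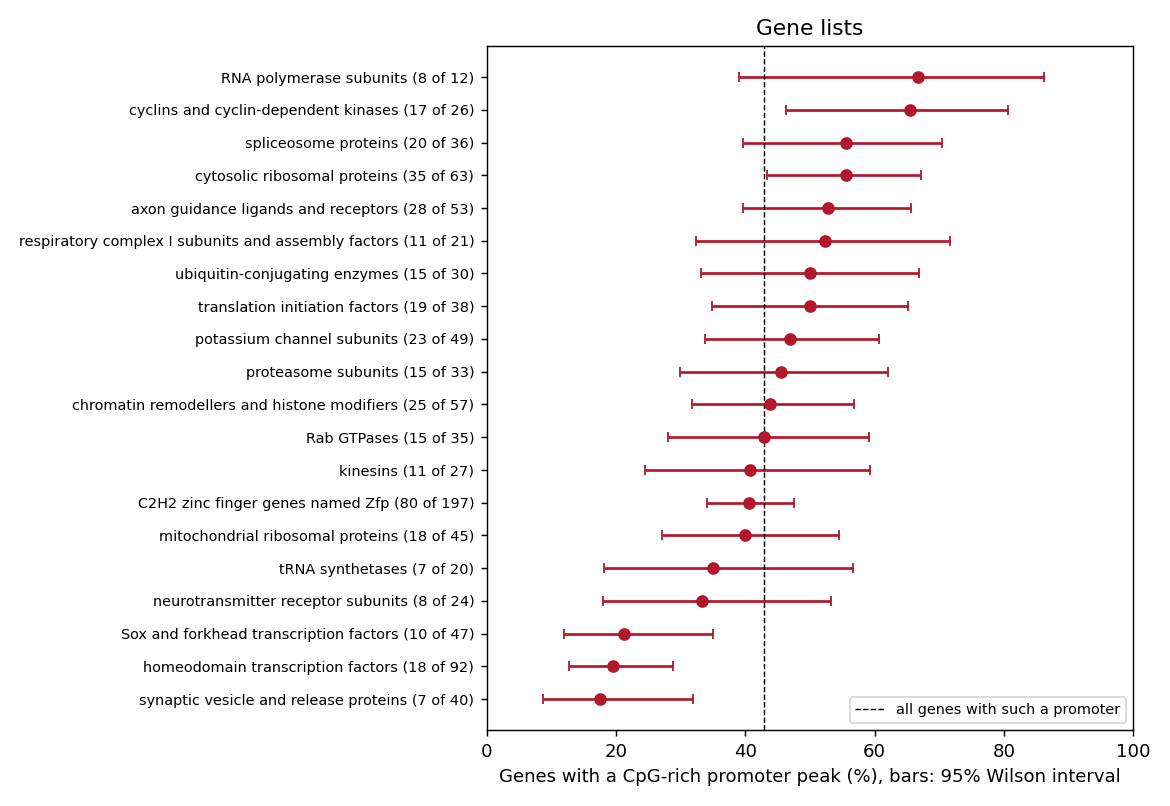
Share of the genes of each list that have a CpG-rich promoter peak (x axis, %, with 95% Wilson intervals), with the number of occupied genes and of genes with such a promoter beside the name; the dashed line is the 42.9% of all 9183 genes. The synaptic vesicle, homeodomain, and Sox and forkhead lists lie between 17.5% and 21.3%, left of the line.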

How the data were processed

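All files are peak lists on mm10, 300000 peaks for each of 2 libraries, 251251 pooled, and conservative (59979) and optimal (62686) sets filtered by the irreproducible discovery rate. The deposited signal value is a score the authors' peak caller gave each peak, without a unit, and served to describe and rank peaks. The sources used here do not name the peak caller, the aligner or the thresholds. The files give no read counts, so depth is unknown. Sequence came from GRCm38 and starts from GENCODE vM21, using every annotated transcript of a protein-coding gene. A peak's place was taken from its summit, and a library's value from its strongest overlapping peak.

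Shares have Wilson intervals and differences of shares Newcombe intervals, at 95%. The logistic regression used statsmodels 0.14.6, the exact tests scipy 1.17.1, with a threshold of 0.05. The matching and regression steps were checked on simulated data. Members, gene lists and tests were chosen with earlier results of these data known. The text names the 12 strongest members, the 6 strongest without a match at 3 mismatches, the 4 with the highest CpG ratio, those next to the threshold and, per list, up to 3 occupied and 2 unoccupied genes. Lists were taken by gene symbol. Rgs9, Apba1, Dpp8, Tradd, Kifc1, Kifc5b and Ccny were chosen after their values were seen.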

Additional observations from a re-analysis of the deposited data

How the results depend on the processing

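The results were recomputed with other peak sets, rules and motif settings. The log odds of a match for members minus CpG-poor promoter peaks, between -1.08 and -0.615, and minus CpG-rich distal peaks, between -0.757 and -0.263, kept their sign and side of the threshold in all 13 alternatives, and the sense share, 55.2% to 63.5%, in all 12. With library 2 alone (without replicate 1) or library 1 alone, the number of members was 4741 and 4804, the occupied share 43.6% and 44.7%, the match share 30.9% and 30.5% and the upstream share 57.6% and 57.7%. Each library's list holds 300000 peaks, so its member count and occupied share depend on how many of these are taken. Their closeness to the values of the optimal set is not read as a result. The log odds with library 2 alone and library 1 alone were -0.917 and -0.977 against CpG-poor promoter peaks and -0.444 and -0.46 against CpG-rich distal peaks. The sense share was 58.2% and 58.1%. In the stronger part of the optimal set (its 31343 strongest peaks) there were 1799 members, 18.6% of genes were occupied, 50.8% of members had a match and 69.9% lay upstream. A CpG ratio over 0.75 left 2358 members, 34.2% occupied genes and 29.6% with a match. The occupied share was 41.3% with the conservative set, 38.6% with a CpG window of 250 bp on each side of the summit and 38.2% with starts within 500 bp, where 61.6% of summits lay upstream. Counting coding transcripts alone put 56.8% upstream. The match share was 10.4% at 1 mismatch, 66.7% at 3 and 22.5% with a window of 25 bp. Merging summits under 150 bp apart changed no value. Depth is not known for either library, so an absent peak shows no absence of CTCF. No paired analysis was possible because the libraries form 1 group.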
